A study of Mus musculus with 4 samples.

Results

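The genes described here are 10 genes of the actin machinery that moves the meiotic spindle in mouse oocytes: Fmn2, Spire1, Spire2, Actr2, Actr3, Arpc2, Arpc3, Wasf2, Wasl and Cfl1. They were taken by symbol, and all 10 were found among the 53677 gene symbols counted. The libraries came from fully grown oocytes held in prophase of the first meiotic division (germinal vesicle or GV stage), collected 48 h after females received 7.5 IU of the gonadotropin PMSG. The groups were control oocytes (Ctrl, 2 libraries) and oocytes depleted of the transcription elongation factor gene Ell3 (Ell3 KD, 2 libraries), each library being polyA RNA of 5 oocytes amplified by Smart-seq2. How the depletion was made, and the strain and age of the females, are not given in the sources used here. Nothing states that replicate libraries stem from different females, so a p-value here measures the spread among libraries only, and that spread may be technical. The study posed the comparison as a check on transcription in relation to meiosis.

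The oocyte divides without centrosomes, and its spindle is carried to the cortex by a cytoplasmic mesh of actin filaments rather than by astral microtubules. Formin-2 (Fmn2) and the Spire proteins nucleate that mesh together from the surface of vesicles, and oocytes that lack Fmn2 are known to fail in polar body extrusion. The Arp2/3 complex instead branches filaments at the cortex once it is switched on by nucleation-promoting factors such as N-WASP (Wasl) and WAVE2 (Wasf2), and it helps to hold the spindle there. Cofilin (Cfl1) severs filaments and returns monomers. It is no nucleator, so the set holds 9 genes that promote filament formation and 1 that takes filaments apart.

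Library totals ran from 45131278 to 89632815 counts, and both Ell3 KD libraries were deeper than both Ctrl libraries. Every one of the 10 genes had at least 567 counts in each library, so counting error was small, although PCR copies were not told apart by molecular tags. Ell3 itself lay at 8.12 and 9.79 CPM (counts scaled to 1000000 per library after TMM factors) in Ctrl and at 2.88 and 2.80 CPM in Ell3 KD, a log2 fold change of -1.66 ± 0.14 (SE; edgeR adjusted p = 6.04e-10). Serinc4, a gene on the strand of Ell3, overlaps 65.6% of its exon length, so reads there could belong to either. It was credited with 8 and 5 counts in the Ctrl libraries and 11 in each Ell3 KD library. The 12 oocyte markers summed to between 23208 and 24185 CPM in all libraries, with Zp3, a gene of the egg coat, highest at between 7365 and 7441 CPM, and 3 of the 12 were called higher in Ell3 KD and 4 lower. The 12 markers of cumulus and granulosa cells, 8 of them tested, summed to 56.4 and 59.1 CPM in Ctrl and to 51.5 and 53.8 CPM in Ell3 KD, theca markers to between 2.36 and 3.04 CPM and blood markers to at most 0.284 CPM, with Hba-a1, Hba-a2, Hbb-bs, Hbb-bt and Lyz2 at 0. Nr5a2 and Cyp19a1 made up most of the granulosa sum, and Nr5a2 was called lower. Inha was called higher, 2.23-fold (adjusted p = 0.000363, edgeR). Amh (9 and 5 counts), Amhr2 (8 and 3) and Foxl2 (4 and 3) had counts in the deeper Ell3 KD libraries but 0 in both Ctrl libraries. Of the other granulosa markers tested, Fshr and Cyp11a1 lay lower in Ell3 KD without being called. The groups overlapped for Cyp19a1, Kitl, Inhba and Ptx3. Fshr went from 0.897 and 1.01 CPM in Ctrl to 0.598 and 0.449 CPM, and Cyp11a1 from 2.76 and 2.61 CPM to 1.91 and 2.03 CPM. Has2, too low to be tested, had 7 and 3 counts in Ctrl and 2 in each Ell3 KD library. The theca marker Hsd3b1 was called higher, 1.94-fold (adjusted p = 0.0395, edgeR). Of the other theca markers, Acta2 and Star lay lower in Ell3 KD without overlap and were not called. Acta2 went from 1.53 and 1.32 CPM in Ctrl to 0.914 and 0.835 CPM, and Star from 0.744 and 0.871 CPM to 0.452 and 0.572 CPM. Cyp17a1 had 1 count in each Ctrl library and 0 in Ell3 KD. The part of these cells in the results that follow was not tested. Because a library is scaled to its own total, less RNA per oocyte would not be seen.

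Promoter sequence is shown for the 2 genes with the smallest adjusted p, Arpc3 and Cfl1, for Fmn2, the formin of the set, and for Actr2 and Actr3, the subunits that give the Arp2/3 complex its name. Each run is the 250 bases before the RefSeq start site (GRCm38.p6), 5′ to 3′ on the strand of the gene. Capitals mark the ETS core CCGGAAG or its reverse complement CTTCCGG.
Arpc3: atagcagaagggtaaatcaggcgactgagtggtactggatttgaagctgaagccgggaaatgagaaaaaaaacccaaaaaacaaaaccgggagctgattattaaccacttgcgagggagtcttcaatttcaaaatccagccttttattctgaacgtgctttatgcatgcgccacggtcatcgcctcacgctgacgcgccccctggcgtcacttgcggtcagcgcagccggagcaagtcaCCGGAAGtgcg
Actr2: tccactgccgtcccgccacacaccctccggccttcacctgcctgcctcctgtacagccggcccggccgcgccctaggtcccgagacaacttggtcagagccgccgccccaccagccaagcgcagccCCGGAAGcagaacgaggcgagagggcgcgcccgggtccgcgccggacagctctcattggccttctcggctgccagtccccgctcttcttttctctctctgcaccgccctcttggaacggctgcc
Actr3: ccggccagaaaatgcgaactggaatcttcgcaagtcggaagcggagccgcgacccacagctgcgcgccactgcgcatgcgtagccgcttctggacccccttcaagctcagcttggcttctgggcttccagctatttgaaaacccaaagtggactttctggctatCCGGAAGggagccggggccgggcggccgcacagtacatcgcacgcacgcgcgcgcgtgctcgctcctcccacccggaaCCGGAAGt
Cfl1: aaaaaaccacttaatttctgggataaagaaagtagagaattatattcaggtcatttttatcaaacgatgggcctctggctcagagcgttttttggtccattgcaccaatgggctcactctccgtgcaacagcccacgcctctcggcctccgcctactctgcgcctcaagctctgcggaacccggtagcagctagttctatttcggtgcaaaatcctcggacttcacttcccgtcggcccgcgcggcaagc
Fmn2: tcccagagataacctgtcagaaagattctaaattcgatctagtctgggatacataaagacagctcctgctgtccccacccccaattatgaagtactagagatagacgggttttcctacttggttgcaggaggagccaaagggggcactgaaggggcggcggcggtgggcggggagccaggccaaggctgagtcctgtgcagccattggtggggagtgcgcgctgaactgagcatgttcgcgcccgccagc
The runs lie at chr5:122391628-122391877 (plus strand), chr11:20112952-20113201 (minus strand), chr1:125435728-125435977 (minus strand), chr19:5490205-5490454 (plus strand) and chr1:174501575-174501824 (plus strand). Of the 10 genes, 9 had an entry in the promoter table, and 4 of these (Arpc3, Actr2, Actr3 and Wasl) held the ETS core in this window, against 6.91% of 32841 promoters of the same length. In Arpc3 it began 11 bases before the start site, in Actr2 124 bases, and in Actr3 8 and 86 bases. Of these 4 genes, Arpc3 was called higher and the other three were not called. The GC box GGGCGG, searched like the other motifs on both strands, was in 7 of the 9 promoters against 32.7% of all, with Arpc3 and Cfl1 lacking it. CCAAT was in 5 against 33.9%, TGACG in 1 (Arpc3) against 17.8%, and TATAAA in 0 against 12.4%. The motifs were chosen with the results of these genes known, overlap between them was not removed, and a match is only a match of letters. The promoters of the 9 genes were 51.2% to 71.2% G and C, against a median of 52.4% over all.

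The 10 genes changed little in Ell3 KD oocytes. Spire1, Spire2, Arpc3, Wasf2 and Cfl1 rose, by between 6.53% and 25.0%, and the other five did not pass the test. None was called lower by edgeR, DESeq2 or limma-voom, nor was any lower at an unadjusted p under 0.05 (0 genes by each). The share called, 5 of 10, was close to the background: 42.9% of all 17879 genes tested were called, and 52.5% of the 9704 genes at a mean of 5 CPM or more, the class all 10 belong to. In CPM, the groups did not overlap for 7 of the 10 genes: 6 had both Ell3 KD libraries above both Ctrl libraries and 1 had both below. Such separation was common, at 70.7% of all genes tested (35% above, 35.7% below) and 76.4% of those at 5 CPM or more (39.1% above, 37.3% below), so it sets the 10 genes apart from neither class. The 5 rises compare with 21.1% of all genes called higher and 27.2% of those at 5 CPM or more, and the 0 falls with 21.8% and 25.3%. The median log2 fold change was 0.08 over the 10 genes and -0.0024 over all genes tested. The median absolute value was 0.08 in the set, where the largest was 0.32. Over all genes tested, low-count genes included, the median absolute value was 0.25. Leaving out Ell3 KD replicate 1 left 3 rises, as did leaving out Ell3 KD replicate 2, and leaving out Ctrl replicate 1 or Ctrl replicate 2 left 4. With an assumed biological coefficient of variation of 0.2, edgeR called 0 of the 10 (0 at an unadjusted p under 0.05). The fitted common value was 0.042. At 0.2, with 2 libraries per group, changes as small as those of the 10 genes could not be called, so that outcome was fixed in advance.

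**Figure D1:**
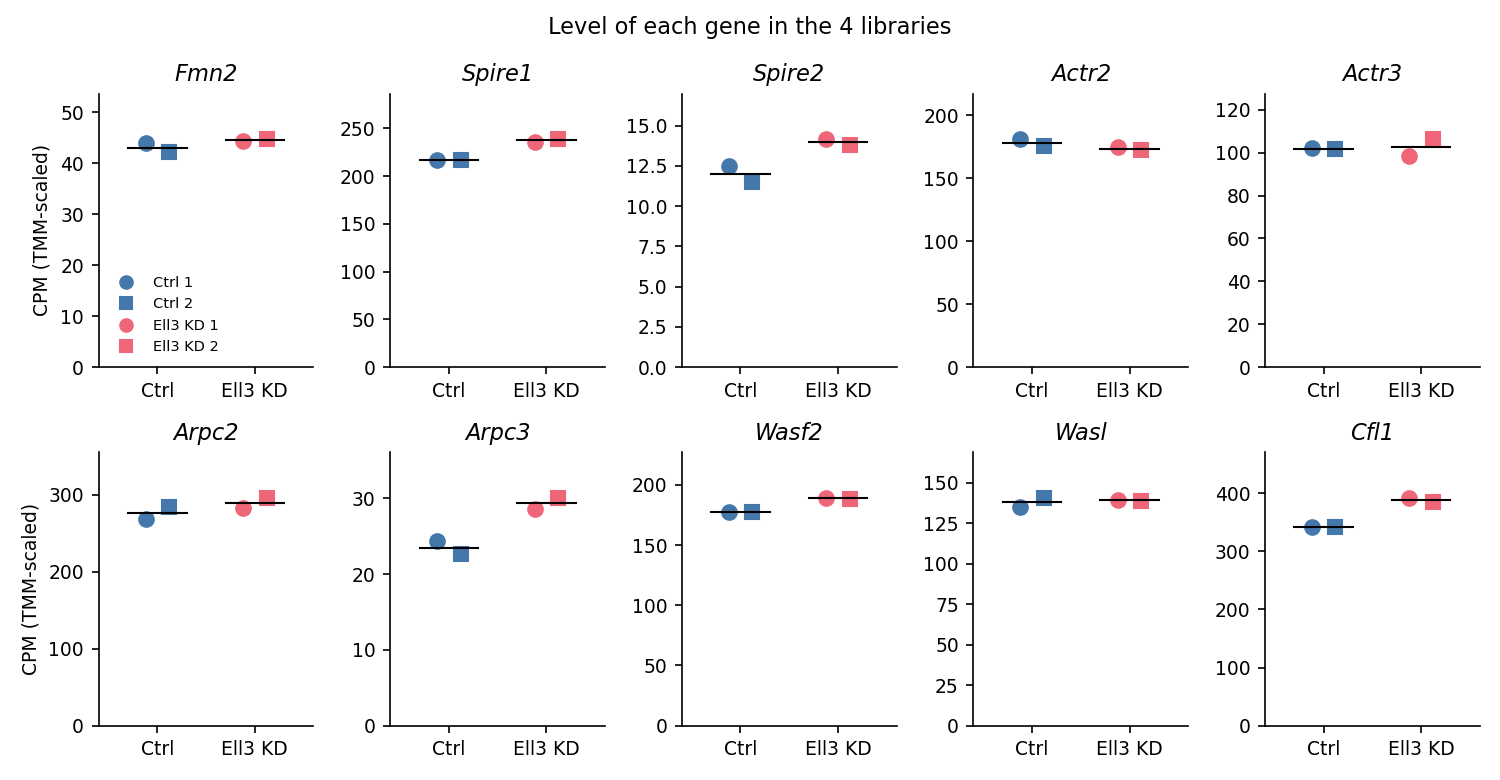
Level of each of the 10 genes (CPM, y axis from 0) in the 2 Ctrl libraries (blue) and the 2 Ell3 KD libraries (red), with circles for replicate 1, squares for replicate 2 and lines for group means. Differences between groups are small beside the levels, the clearest being those of Arpc3 and Cfl1.

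Fmn2 builds the cytoplasmic actin mesh by elongating filaments from their growing ends. It lay at 43.9 and 42.1 CPM in Ctrl and at 44.3 and 44.7 CPM in Ell3 KD. Both Ell3 KD libraries were above both Ctrl libraries, by a gap smaller than that between the Ctrl libraries. The log2 fold change came to 0.05 ± 0.05 (SE), which did not pass (adjusted p = 0.466, edgeR), and its 95% interval of the difference ran from -3.87% to 11.5%. The gene spans 174501825 to 174822729 on the plus strand of chromosome 1 (GRCm38), and its exons overlap no other annotated gene. Over the 4 libraries the pathway genes with the most similar profile were Arf1, Diaph1 and Cyfip1, at distances of 0.031, 0.032 and 0.059 on the log2 scale among 93 genes compared. Profiles were centred but not scaled, so genes that changed little lie close together by this measure.

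The Spire genes encode the partners of Fmn2, which bind actin monomers in a row through tandem WH2 domains and anchor the nucleator to vesicles. Spire1 lay at 217 CPM in both Ctrl libraries and at 236 and 239 CPM in Ell3 KD, so the groups did not overlap. It rose by 0.13 ± 0.03 on the log2 scale, 9.45% (95% interval 4.41% to 14.7%; edgeR adjusted p = 0.00238). Spire2 was at 12.5 and 11.5 CPM in Ctrl and at 14.2 and 13.8 CPM in Ell3 KD, again without overlap. Its rise was 0.22 ± 0.09 in log2 units, 16.7% (95% interval 2.98% to 32.2%; adjusted p = 0.0423, edgeR), just past the threshold. The call on Spire2 was lost without Ctrl replicate 2 (edgeR adjusted p = 0.245), without Ell3 KD replicate 1 (adjusted p = 0.185) and without Ell3 KD replicate 2 (adjusted p = 0.0901), with DESeq2 (adjusted p = 0.167) and with scaling by library totals alone (adjusted p = 0.0948), whereas Spire1 was called in each of these. Spire2 spans 123332713 to 123369515 on the plus strand of chromosome 8.

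Spire1 was by far the more abundant of the pair. Per kilobase of exon it exceeded Spire2 by 5.61-fold and 6.12-fold in the Ctrl libraries and by 5.39-fold and 5.61-fold in Ell3 KD, so the excess was much the same in all 4. Against Fmn2, per kilobase, Spire1 was 5.06-fold and 5.29-fold higher in Ctrl and 5.47-fold higher in both Ell3 KD libraries. The sum of Fmn2, Spire1 and Spire2 was 273 and 271 CPM in Ctrl and 295 and 297 CPM in Ell3 KD.

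Actr2 and Actr3 encode the actin-related subunits Arp2 and Arp3, which stand in for the first actin pair of a new branch. Actr2 lay at 181.1 and 175.4 CPM in Ctrl and at 175.0 and 172.2 CPM in Ell3 KD. It was the only gene of the 10 with both Ell3 KD libraries below both Ctrl libraries, and the groups all but touched. The log2 fold change came to -0.04 ± 0.04 (SE), which did not pass (adjusted p = 0.413, edgeR), with a 95% interval from -7.36% to 2.45%. Twf2, Arpc1b and Wdr1 had the most similar profiles over the 4 libraries, at distances of 0.030, 0.060 and 0.064 on the log2 scale.

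Actr3 was at 102 CPM in both Ctrl libraries and at 98.6 and 106 CPM in Ell3 KD, so that the Ell3 KD libraries lay on either side of Ctrl. Its log2 fold change of 0.01 ± 0.04 did not pass (adjusted p = 0.907, edgeR) and turned to -0.03 when libraries were scaled by their totals alone and to -0.04 without Ell3 KD replicate 2. The 95% interval ran from -5.34% to 6.74%. Actr3 has a near copy in the processed pseudogene Gm8822, with 98.8% identity over 2348 bases, whose counts equalled 14.1% and 16.2% of those of Actr3 in Ctrl and 16.1% and 14.9% in Ell3 KD. Reads that fit both cannot be assigned with certainty, and the share did not separate the groups. Actr2 spans 20062304 to 20112913 on the minus strand of chromosome 11, and Actr3 125392905 to 125435727 on the minus strand of chromosome 1.

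Arpc2 and Arpc3 encode subunits of the same complex, the first a large scaffold that holds the mother filament. Arpc2 lay at 269 and 284 CPM in Ctrl and at 283 and 296 CPM in Ell3 KD, and the groups overlapped. Its log2 fold change of 0.07 ± 0.03 did not pass (adjusted p = 0.124, edgeR), with a 95% interval from -0.313% to 10.1%. Without Ctrl replicate 2 it was called (edgeR adjusted p = 0.0256), and so it was with the replicate number as a block (adjusted p = 0.0394).

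Arpc3 had the largest change of the 10 genes. It was at 24.3 and 22.6 CPM in Ctrl and at 28.6 and 30.1 CPM in Ell3 KD, well apart. It rose by 0.32 ± 0.06 on the log2 scale, 25.0% (95% interval 14.0% to 37.1%; edgeR adjusted p = 0.000258), and was called without each library in turn, with the adjusted p at most 0.00444. Per kilobase of exon, Arpc2 was 15.02-fold and 17.04-fold Arpc3 in Ctrl and 13.4-fold in both Ell3 KD libraries. The size of this excess rests on the length used. By the longest transcript, the Ctrl means were 192 CPM per kb for Arpc2 and 26.1 for Arpc3, a much smaller excess. Arpc2 spans 74236084 to 74268209 on chromosome 1 and Arpc3 122391878 to 122414184 on chromosome 5, both on the plus strand, and neither shares exons with another annotated gene. A processed pseudogene, AC154544.1, has 96.1% identity to Arpc2 over 510 bases and was not analysed here.

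The other subunits of the complex were counted from a list of 6 genes, which holds alternative forms of some subunits. Of these, 5 were called lower and 0 higher by edgeR, with a median log2 fold change of -0.19. Of all genes tested 21.8% were called lower, and of those at 5 CPM or more, the class of all 6, 25.3%. At an unadjusted p under 0.05 the counts were the same, DESeq2 called 4 lower and limma-voom 5, each with 0 higher. Actr3b, an alternative form of Actr3, fell by 0.41 ± 0.10 in log2 units (adjusted p = 0.00268, edgeR), Arpc5 by 0.27 ± 0.05 (adjusted p = 0.000172) and Arpc1a by 0.24 ± 0.04 (adjusted p = 4.96e-05). Arpc5l, at 822 ± 19.2 CPM in Ctrl and 776 ± 8.48 CPM in Ell3 KD (SD, n = 2), fell by 0.08 ± 0.03 (edgeR adjusted p = 0.0219). Arpc4, named after its value was seen, fell by 0.13 ± 0.05 (edgeR adjusted p = 0.0420). Arpc1b, at 169 and 168 CPM on average, did not pass (adjusted p = 0.889, edgeR). Without Ell3 KD replicate 1 only 3 of the 6 were called lower, and likewise 3 without Ell3 KD replicate 2, the calls on Arpc4 and Arpc5l being lost in both. Exons of Arpc4 share 12.2% of their length with Ttll3 on the same strand and those of Arpc1b 18.2% with Pdap1 on the opposite strand. With the assumed coefficient of variation of 0.2 edgeR called 0 of the 6 in either direction (0 at an unadjusted p under 0.05), a setting at which changes of this size could not be called.

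Over the whole complex of 10 genes, then, Arpc3 rose, 5 genes fell and 4 did not pass the test. The 4 subunits of the set summed to 577 and 583 CPM in Ctrl and to 585 and 605 CPM in Ell3 KD. The 6 others summed to 1182 and 1216 CPM in Ctrl and to 1129 and 1114 CPM in Ell3 KD. Arpc5l made up most of the latter sum, at 809 and 836 CPM in Ctrl and 782 and 770 CPM in Ell3 KD. These sums do not take exon length into account.

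**Figure D2:**
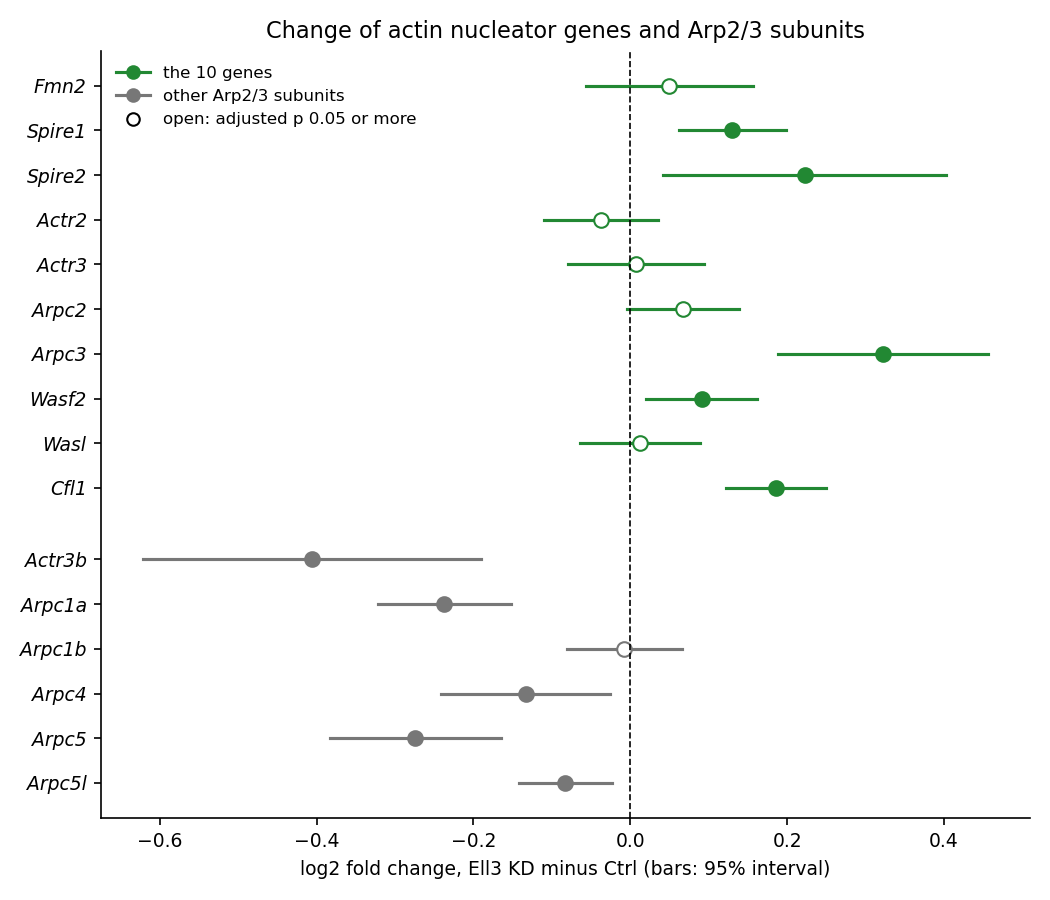
Log2 fold change of Ell3 KD over Ctrl (x axis) with its 95% interval for the 10 genes (green) and the other subunits of the Arp2/3 complex (grey), filled where the edgeR adjusted p was under 0.05. The filled green points all lie to the right of 0, with Arpc3 farthest at 0.32, and the filled grey points to the left.

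Wasf2 and Wasl encode WAVE2 and N-WASP, which relay signals from the small GTPases Rac and Cdc42 to the Arp2/3 complex. Wasf2 lay at 177 CPM in both Ctrl libraries and at 189 and 188 CPM in Ell3 KD, with libraries of a group very close together. It rose by 0.09 ± 0.03 on the log2 scale, 6.53% (95% interval 1.43% to 11.9%; edgeR adjusted p = 0.0342). The call was lost without Ctrl replicate 1 (edgeR adjusted p = 0.0750), without Ctrl replicate 2 (adjusted p = 0.0908), without Ell3 KD replicate 1 (adjusted p = 0.164) and without Ell3 KD replicate 2 (adjusted p = 0.1103), and with scaling by library totals alone (adjusted p = 0.228). Wasl was at 135 and 141 CPM in Ctrl and at 139.7 and 139.0 CPM in Ell3 KD, inside the range of Ctrl. Its log2 fold change came to 0.01 ± 0.04, which did not pass (adjusted p = 0.822, edgeR), with a 95% interval from -4.35% to 6.33%, and it turned to -0.03 under scaling by library totals and to -0.02 without Ctrl replicate 1. Per kilobase of exon, Wasf2 was 1.29-fold and 1.24-fold Wasl in Ctrl and 1.34-fold and 1.33-fold in Ell3 KD. Wasf2 spans 133130505 to 133199756 on the plus strand of chromosome 4 and Wasl 24613805 to 24665009 on the minus strand of chromosome 6.

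Cfl1 encodes the main non-muscle cofilin, which severs and depolymerizes old filaments. It lay at 342 CPM in both Ctrl libraries and at 392 and 385 CPM in Ell3 KD, with a wide gap between the groups. It rose by 0.19 ± 0.03 on the log2 scale, 13.7% (95% interval 8.81% to 18.8%; edgeR adjusted p = 2.81e-05), and kept its call without each library in turn, with the adjusted p at most 0.00058. Of the genes of related proteins, Cfl2, at 172 and 174 CPM on average, did not pass (adjusted p = 0.668, edgeR), and Dstn, which encodes destrin, fell by 0.24 ± 0.05 in log2 units (adjusted p = 0.000210, edgeR). Both were named after their values were seen. Per kilobase of exon, Cfl1 was 3.26-fold and 3.43-fold Dstn in Ctrl and 4.69-fold and 4.30-fold in Ell3 KD, and 2.33-fold and 2.24-fold Cfl2 in Ctrl against 2.56-fold in both Ell3 KD libraries.

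Cfl1 spans 5490455 to 5495201 on the plus strand of chromosome 19, and 16.5% of its exon length is shared with Snx32 on the opposite strand. Snx32 was credited with 111 and 183 counts in the Ctrl libraries and 187 and 99 in those of Ell3 KD, against 15635 to 34757 for Cfl1. The processed pseudogene Gm6180, with 98.8% identity over 498 bases, was credited with 68 and 75 counts in the Ctrl libraries and 201 and 109 in those of Ell3 KD. Their credited counts were small beside those of Cfl1, together between 0.835% and 1.53% of them. Reads that fit Cfl1 and either of these cannot be assigned with certainty, and the credited counts do not measure them.

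Levels were compared between genes only per length, as CPM per kilobase of the exons of all annotated transcripts. Arpc2 (136 ± 5.05 in Ctrl, SD, n = 2) and Cfl1 (120 ± 0.0841) stood highest, above 97.5% and 97.3% of 17308 genes. Actr2 followed at 34.3 ± 0.768, then Wasf2 at 28.3 ± 0.0358 and Spire1 at 27.9 ± 0.0794. In Ell3 KD Spire1 stood at 30.6 ± 0.241 and Wasf2 at 30.2 ± 0.126, but the order of this pair rests on the length used, since by the longest transcript Spire1 was at 40.2 and Wasf2 at 31.4 in Ctrl. Wasl at 22.4 ± 0.638 and Actr3 at 22.0 ± 0.0668 did not differ beyond their spread. Arpc3 lay lower at 8.499 ± 0.441 in Ctrl and 10.6 ± 0.373 in Ell3 KD. Fmn2 and Spire2 were the lowest, at 5.40 ± 0.156 and 4.77 ± 0.278 in Ctrl, above 65.2% and 64.3% of genes, and overlapped in Ell3 KD at 5.59 ± 0.0397 and 5.56 ± 0.1098. With the longest annotated transcript as the length, Arpc3 moved to 26.1 in Ctrl, since its annotated exons sum to 2.76 kb but its longest transcript to 0.899 kb, and Actr3 moved to 39.7. Fmn2 and Spire2 stayed lowest, at 6.67 and 5.14.

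**Figure D3:**
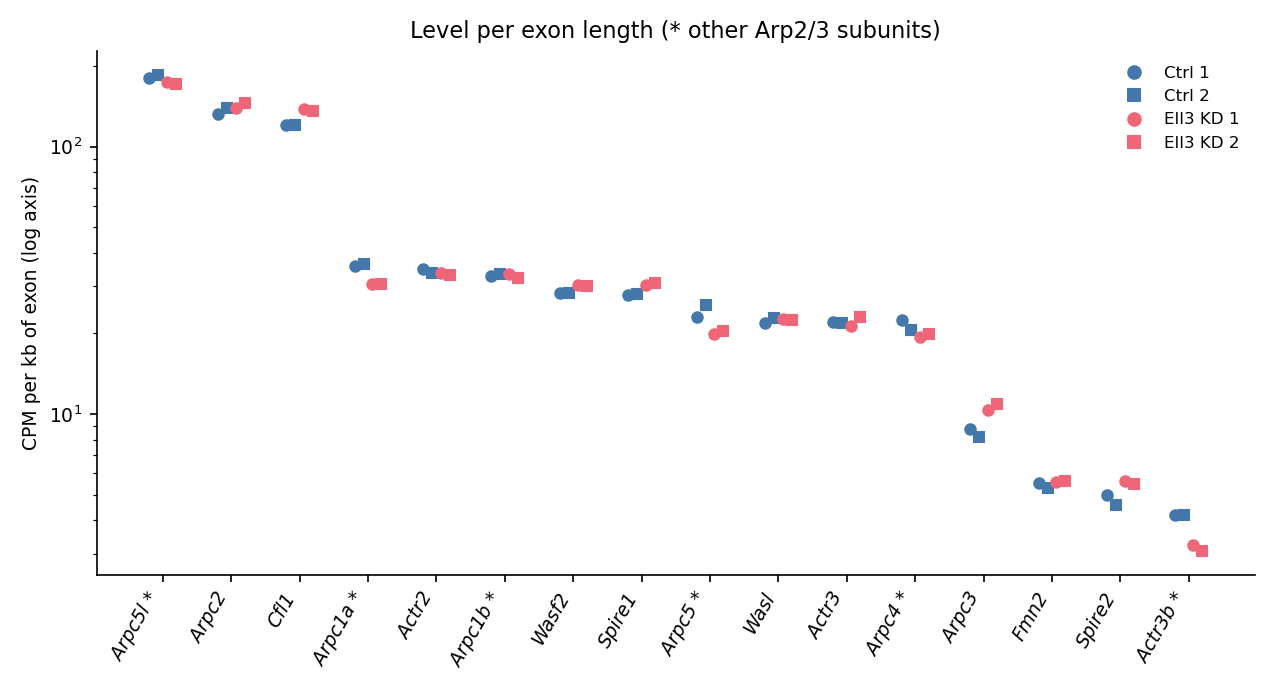
Level per kilobase of exon (log axis) of the 10 genes and of the other Arp2/3 subunits (starred) in each library, ordered by the Ctrl mean. Arpc2 and Cfl1 lead the 10 genes, and Fmn2 and Spire2 lie lowest of them.

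The rest of the actin pathway was read from 8 lists of 125 genes, of which 109 passed the low-count filter. Of these, 31 rose and 25 fell. The background over all genes was 21.1% higher and 21.8% lower. At 5 CPM or more 23 of 84 rose, against 27.2% of that class, and 21 of 84 fell, against 25.3%, so the shares were near the background. The lists had a median log2 fold change of 0.03. Small GTPases, the switches upstream of the nucleators, had 7 of 10 higher and 0 lower by edgeR (0 lower at an unadjusted p under 0.05 and by DESeq2 and limma-voom, 1 lower without Ctrl replicate 2), with a median of 0.41. DESeq2 and limma-voom each called 6 of this list higher, and scaling by library totals alone left 5. At 5 CPM or more 6 of 7 rose, against 27.2% of that class. Rac1, which acts through WAVE2, rose 3.94-fold and Arf6 4.01-fold. Exons of Rac1 share 51.4% of their length with Daglb on the opposite strand, and those of Arf6 13.6% with Gm9887. Rhoa, the switch of cortical contraction, rose by 0.55 ± 0.05 in log2 units (adjusted p = 4.61e-10, edgeR), and Cdc42, the activator of N-WASP, by 0.14 ± 0.03 (adjusted p = 0.00113). Wasf2 and Wasl, downstream of Rac1 and Cdc42, had log2 fold changes of 0.09 and 0.01 in the same libraries.

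Of 18 tested nucleation-promoting factors and partners, 4 rose and 4 fell (median 0.06). Cttn, the cortactin gene, fell by 0.58 ± 0.06 in log2 units (adjusted p = 3.28e-08, edgeR) and the WAVE complex gene Abi2 by 0.43 ± 0.08 (adjusted p = 4.75e-05), while Fnbp1l, an activator of N-WASP, rose by 0.20 ± 0.03 (adjusted p = 2.63e-05). Of 12 tested formins and WH2 nucleators, 4 rose and 2 fell (median 0.10). Only 2 rose without Ctrl replicate 1 or without Ell3 KD replicate 2, and only 1 fell without Ctrl replicate 2 or without Ell3 KD replicate 1. Diaph2, a formin gene, was called higher (adjusted p = 0.000138, edgeR) at low levels of 0.109 and 0.0608 CPM in Ctrl and 0.576 and 0.897 CPM in Ell3 KD. Cobl rose by 0.20 ± 0.04 in log2 units (adjusted p = 0.000213, edgeR) and Fmnl3 fell by 0.19 ± 0.03 (adjusted p = 8.28e-05), at 197 ± 1.44 and 172 ± 3.62 CPM (SD, n = 2). Of 8 tested inhibitors and debranching factors, 2 rose and 1 fell (median 0.12). No rise was called without Ell3 KD replicate 1 (0 by edgeR) or with DESeq2 (0, but 2 at an unadjusted p under 0.05), and 1 without Ctrl replicate 1, Ctrl replicate 2 or Ell3 KD replicate 2. Pick1 fell by 0.52 ± 0.11 in log2 units (adjusted p = 0.000491, edgeR), and 18.6% of its exon length is shared with Gm49486.

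Vesicles that carry Rab11 and myosin V bear the Fmn2 and Spire nucleators. Of the 10 genes of this list, 2 rose and 4 fell (median 0.05). Rises numbered 1 without Ctrl replicate 2, without Ell3 KD replicate 1 or without Ell3 KD replicate 2, and 3 without Ctrl replicate 1. Rab11a rose by 0.12 ± 0.03 in log2 units (adjusted p = 0.00365, edgeR), Rab11b fell by 0.30 ± 0.06 (adjusted p = 0.000273) and the motor gene Myo5b fell by 0.13 ± 0.03 (adjusted p = 0.00270). Of 13 tested genes of cortical myosin II and ERM proteins, 6 rose and 0 fell by edgeR (0 at an unadjusted p under 0.05 and by DESeq2 and limma-voom), with a median of 0.06. Of all genes tested, 21.1% were called higher and 21.8% lower. At 5 CPM or more 3 of 9 rose and 0 fell, against 27.2% and 25.3% of that class. With a library left out, 4 to 6 rose. Mylk, a myosin light chain kinase gene, was called higher (adjusted p = 0.000772, edgeR) at 0.0219 and 0.0405 CPM in Ctrl, below the level of 3 counts, and 0.293 and 0.526 CPM in Ell3 KD. Rdx, the radixin gene, was high at 1940 ± 34.3 and 1962 ± 41.0 CPM (SD, n = 2) and did not pass (adjusted p = 0.660, edgeR). Of 32 tested genes of actin monomers, turnover and capping, 6 rose and 9 fell (median -0.15). The profilin gene Pfn1 rose by 0.17 ± 0.03 in log2 units (adjusted p = 0.000277, edgeR) and Pfn2 fell by 0.52 ± 0.07 (adjusted p = 2.18e-06), while Tmsb10, a monomer-binding gene, rose by 0.47 ± 0.04 (adjusted p = 2.49e-10).

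**Figure D4:**
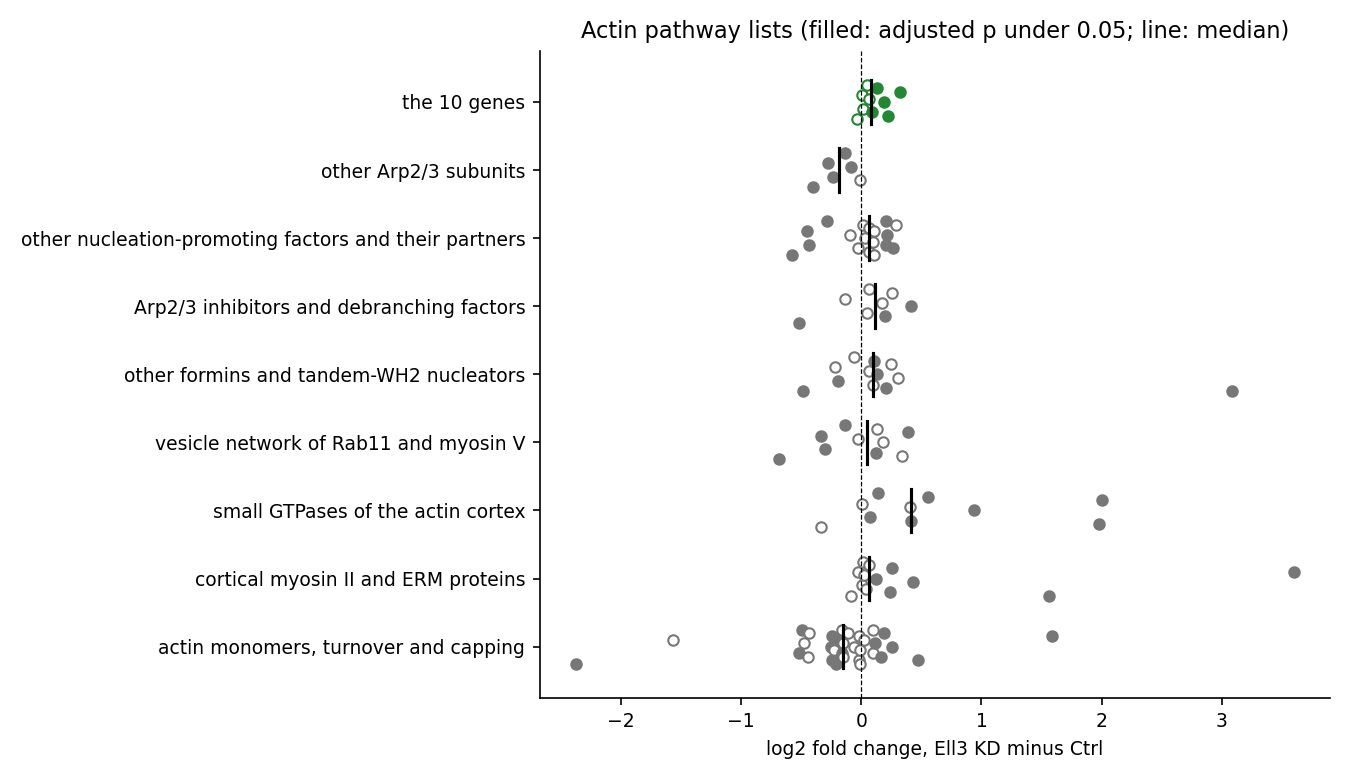
Log2 fold change of Ell3 KD over Ctrl (x axis) of each tested gene of the 10-gene set (green) and of the pathway lists (grey), filled where the edgeR adjusted p was under 0.05, with the median of each list as a line. The 10 genes lie between -0.04 and 0.32, small GTPases reach 2.00, and the extremes are Mylk at 3.60, Diaph2 at 3.08 and Tmod4, named after its value was seen, at -2.37.

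The calls on the 10 genes fell into 3 classes by how they held up. Spire1, Arpc3 and Cfl1 were called in 12 of 13 alternative analyses, the exception being the assumed coefficient of variation. Under that setting no change as small as those of the 10 genes could be called. Spire2 and Wasf2 were each called in 7 of 13. Of those not called, Arpc2 was called in 2 of 13, and Fmn2, Actr2, Actr3 and Wasl in 0 of 13.

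**Figure D5:**
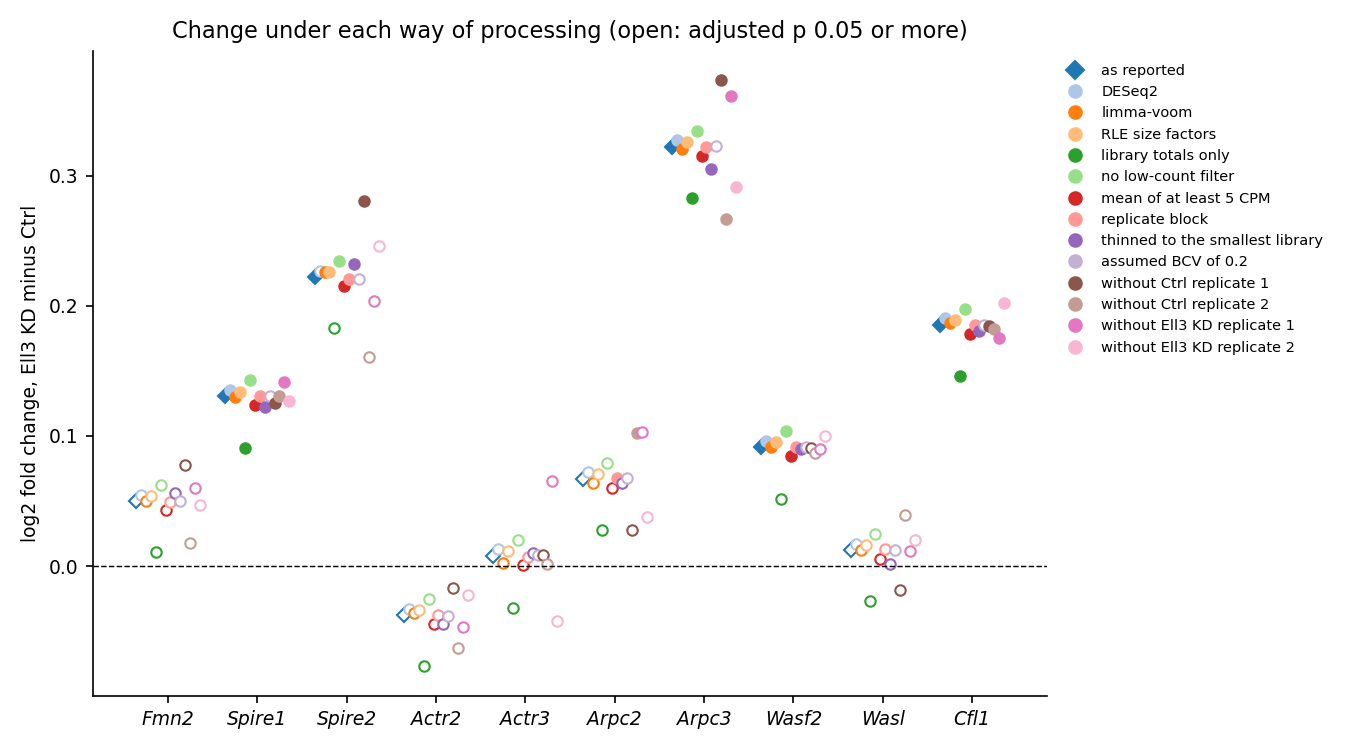
Log2 fold change of each of the 10 genes (y axis) as reported (diamonds) and in the 13 alternative analyses (circles), filled where the adjusted p was under 0.05. Only the open circle of the assumed coefficient of variation breaks the run of filled points for Spire1, Arpc3 and Cfl1.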

How the data were processed

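Gene counts of 4 libraries were used. The deposited values are raw counts per gene symbol, and the tools named are FastQC (version 0.11.5), HISAT2 (version 2.2.1.0) and featureCounts, with the build mm10, per the submitters' processing notes. Which annotation was counted, with what strand setting, and what became of multi-mapping reads is not given in the sources used here. Per the labels, cDNA was amplified for 16 cycles and read as 150-bp pairs.

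Ell3 KD was compared with Ctrl in R 4.3.3 with edgeR 4.0.16 (filterByExpr, TMM, quasi-likelihood F test, two-sided) over all 17879 genes that passed the filter, without covariates. Values of p were Benjamini-Hochberg adjusted over all of them and called under 0.05. SE is the log2 fold change over the square root of F. Alternatives were DESeq2 1.42.0, limma-voom (limma 3.58.1), other scalings and filters, thinning to the smallest library, each library left out, the replicate number as a block and an assumed coefficient of variation. The fit was tested on simulated counts, with changes placed among genes at 5 CPM or more. It called 4% of 1.1-fold changes in the right direction and 72% of 1.25-fold changes, and 0.041% of unchanged genes. Small changes can thus go uncalled. Far fewer genes changed in the simulation than were called in the data, so these shares need not hold there. Exon lengths and overlaps came from GENCODE M21, near copies from BLAST 2.17.0 (95% identity or more over 300 bases or more), promoters from RefSeq.

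The 10 genes and the lists were chosen with earlier results of these data known. Genes named were the 10, Ell3, and from each list the 2 highest in mean CPM and up to 3 called genes with the smallest p, of which a part is described. Profile likeness was the Euclidean distance of centred, unscaled log2 CPM (prior count 2) among genes at 5 CPM or more.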

Additional observations from a re-analysis of the deposited data

How the results depend on the processing

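For the 10 genes, 109 of 130 values from alternative analyses kept their direction and side of the threshold, and for the named pathway genes 396 of 451. With the assumed coefficient of variation of 0.2, edgeR called 861 genes higher and 1103 lower, 0 of the 10 genes (0 at an unadjusted p under 0.05), and 6 pathway genes higher and 2 lower. The changes of the 10 genes were too small to be called at that value. Scaling by library totals alone left 3 of the 10 genes called higher. With a library left out, 3 to 4 of the 10 were called higher and 0 lower, 22 to 26 pathway genes higher and 21 to 24 lower, and 2797 to 3482 of all genes higher and 2922 to 3439 lower. Values that changed sign were all uncalled. By library totals these were Actr3 (-0.0320), Wasl (-0.0272) and Rdx (-0.0234), and without the filter Arpc1b (0.0049). With a library left out, Actr3 ran from -0.0426 to 0.0651, Wasl from -0.0181 to 0.0390, Arpc1b from -0.0297 to 0.0209 (0.0017 without Ctrl replicate 2), Rdx from -0.0035 (-0.00099 without Ell3 KD replicate 2) to 0.0403 and Rock1 from -0.0021 to 0.0781. The cause was not tested.

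Whether replicate numbers pair the libraries is not known, since the labels name no shared animal or day. Same-numbered deviations correlated at 0.029 over genes, which cannot settle the question with so few libraries. With the replicate block 6 of the 10 genes were called higher and 0 lower, 31 and 27 pathway genes, and 3894 and 3987 of all genes. Per length by the longest transcript, Ctrl levels were 6.67 for Fmn2, 40.2 for Spire1, 5.14 for Spire2, 49.1 for Actr2, 39.7 for Actr3, 192 for Arpc2, 26.1 for Arpc3, 31.4 for Wasf2, 31.7 for Wasl and 145 for Cfl1 CPM per kb. Scaling moved the median of all genes by at most 0.04 on the log2 scale.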
